A study of Homo sapiens with 18 samples.

Results

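The senescence-associated cytokine genes IL6, IL8 (the older symbol of CXCL8), IL1A, IL1B, CXCL1, CXCL2, CCL2, GDF15 and IGFBP3 were followed by RNA sequencing in SJSA-1 cells, an established human osteosarcoma line in which MDM2 and CDK4 are amplified. The 9 genes were chosen by symbol, and all 9 were found among the 23368 gene rows of the count tables. The study asked how inhibition of CDK4 changes the p53 response to an MDM2 antagonist, and 18 libraries were made in 6 groups of 3. DMSO was the vehicle control. The Nutlin group received 20 µM Nutlin, which frees p53 from MDM2, for 6 h. The PD30 group received 10 µM PD0332991 (Palbociclib, an inhibitor of CDK4 and CDK6) for 30 h. In the PD24 group the same dose was given for 24 h and then withdrawn for the last 6 h. In the N+PD30 and N+PD24 groups Nutlin was added for the last 6 h, with PD0332991 either kept on the cells or withdrawn when Nutlin was added. All groups were the same line in culture, so each result describes 1 cell line. The study calls its samples biological replicates, but the labels do not say whether they were separate cultures, so the p-values measure the spread between these libraries.

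Senescent and damaged cells secrete a mixture of cytokines, chemokines and growth factor binding proteins, known as the senescence-associated secretory phenotype. In the usual account, interleukin-1 alpha and beta signal through the IL-1 receptor to NF-kB, which together with C/EBP beta switches on IL6 and the chemokine genes. IL8, CXCL1 and CXCL2 encode chemokines that attract neutrophils, and CCL2 encodes one that attracts monocytes. GDF15 encodes a stress hormone of the TGF-beta superfamily and is a known direct target of p53. IGFBP3 encodes a secreted protein that binds insulin-like growth factors and limits their access to the receptor.

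Each library held between 12704845 and 40231041 reads assigned to genes, with a median of 29608936, and the N+PD30 group held the shallowest library. Levels are given as CPM, the reads of a gene scaled to the total of assigned reads in its library, with the standard deviation (SD) over 3 libraries. A difference passed where its p, adjusted by Benjamini and Hochberg over all genes tested, was under 0.05. The drug labels were checked with CDKN1A, the p53 target that encodes the cell cycle inhibitor p21: its level was 184 ± 38.0 CPM in DMSO and 3980 ± 146 CPM in Nutlin. MDM2 and CDK4 were abundant in all libraries, at no less than 1150 CPM for MDM2 and 1700 CPM for CDK4. The osteoblast lineage markers COL1A1, SPARC and RUNX2 were present, but BGLAP and SP7 stayed at or under 0.221 and 0.244 CPM. Of the markers of other cell types, the leukocyte genes MS4A1 and CD3E did not exceed 0 and 0.0541 CPM, PTPRC did not exceed 0.492 CPM, while CD68 lay between 13.6 and 36.4 CPM, CD14 between 2.49 and 15 CPM and LYZ between 1.18 and 2.98 CPM. The 6 leukocyte markers summed to 23.8 to 33.4 CPM in DMSO and to 41.4 to 45 CPM in N+PD24. Of the endothelial markers CDH5 did not exceed 0.123 CPM, VWF lay between 1.27 and 13.5 CPM and PECAM1 between 0.464 and 2.36 CPM. Their sum ranged from 1.85 to 3.04 CPM in DMSO, 6.19 to 8.29 CPM in Nutlin, 4.45 to 6.59 CPM in PD24, 6.34 to 8.37 CPM in PD30, 10.6 to 15.4 CPM in N+PD24 and 6.06 to 8.81 CPM in N+PD30. The part of these markers in the results was not tested. The epithelial markers summed to at most 2.44 CPM.

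On the GRCh37 assembly, which is the hg19 build of the files, IL8 (chr4:74606236-74609433), CXCL1 (chr4:74735110-74737025) and CXCL2 (chr4:74962757-74964913) lie in the chemokine cluster of chromosome 4. IL1A (chr2:113531502-113542070) and IL1B (chr2:113587328-113594393) are neighbours on chromosome 2. IL6 (chr7:22765503-22771621) and IGFBP3 (chr7:45951844-45961473) are on chromosome 7, CCL2 (chr17:32582293-32584227) is on chromosome 17 and GDF15 (chr19:18485541-18499986) is on chromosome 19. Exons of IL6 overlap IL6-AS1 and STEAP1B, annotated on the opposite strand. The study counted reads with a strand setting, but the sources do not say that the library kit marks strand, so reads of these genes may be counted in IL6. GDF15 contains the miRNA gene MIR3189 outside the exons of the transcript used here. CXCL1 and CXCL2 are close paralogues: 5.33% of the 50-base windows of the CXCL1 transcript and 10.1% of those of the CXCL2 transcript occur also in another transcript of the CXCL1, CXCL2 and CXCL3 group. The counts of these chemokine genes are uncertain to that extent.

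The promoters of the genes on which the results turn differ in their letters. RefSeq promoter sequences (GRCh38.p14, 250 bases before to 50 after the transcription start) matched 8 of the 9 members. The last 170 bases before the start are shown 5′ to 3′ on the gene's own strand for 4 genes with clear drug responses, IL6, IL8, IL1B and GDF15, and for IGFBP3. Like IL8 and IL1B, IGFBP3 passed as lower with PD0332991 kept than withdrawn, both without and with Nutlin. IL1A and CCL2 passed there only without Nutlin. Capitals mark matches on either strand to the NF-kB motif, the p53 decamer, the AP-1 motif (TGANTCA), the C/EBP motif (TTNNGNAA) or the core promoter motif named TATA, searched for as the letters TATAAA.
IL6 (chr7:22727030-22727199, plus strand): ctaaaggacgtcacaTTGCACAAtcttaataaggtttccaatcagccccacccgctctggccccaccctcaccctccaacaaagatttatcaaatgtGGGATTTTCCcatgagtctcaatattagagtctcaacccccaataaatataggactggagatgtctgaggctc
IL8 (chr4:73740399-73740568, plus strand): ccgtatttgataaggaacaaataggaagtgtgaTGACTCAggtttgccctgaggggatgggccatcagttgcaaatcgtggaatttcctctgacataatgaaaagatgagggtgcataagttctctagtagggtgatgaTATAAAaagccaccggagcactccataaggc
IL1B (chr2:112836780-112836949, minus strand): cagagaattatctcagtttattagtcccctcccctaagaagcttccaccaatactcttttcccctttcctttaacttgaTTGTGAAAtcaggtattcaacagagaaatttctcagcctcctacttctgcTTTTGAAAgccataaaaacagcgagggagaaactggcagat
GDF15 (chr19:18385988-18386157, plus strand): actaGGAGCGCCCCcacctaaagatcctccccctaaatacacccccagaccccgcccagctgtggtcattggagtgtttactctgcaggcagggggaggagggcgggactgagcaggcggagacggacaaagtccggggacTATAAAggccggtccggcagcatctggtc
IGFBP3 (chr7:45921273-45921442, minus strand): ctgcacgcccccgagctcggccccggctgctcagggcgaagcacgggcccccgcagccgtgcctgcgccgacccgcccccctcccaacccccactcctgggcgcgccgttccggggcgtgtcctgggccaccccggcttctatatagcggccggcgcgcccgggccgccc
In IL6 the capitals are a C/EBP match on the reverse strand and an NF-kB match. In IL8 they are an AP-1 match and a TATA match, in IL1B a pair of C/EBP matches, and in GDF15 an NF-kB match on the reverse strand and a TATA match. IGFBP3 held none of these letters in the stretch shown. Over the whole windows, the NF-kB motif was found in 4 members, CXCL1, CXCL2, GDF15 and IL6, and in 11.3% of 35116 RefSeq promoters of the same length. In CXCL1 and CXCL2 a match on one strand overlaps a match on the other. The C/EBP motif was found in 4 members (CXCL2, IL1A, IL1B and IL6; 36.8% of all promoters), the AP-1 motif in IL1A and IL8 (7.71%), the TATA motif in GDF15, IL1A and IL8 (11.5%) and the p53 decamer in 0 members (6.63%). A match describes the letters only, and a window without one says nothing about the factor.

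In DMSO the members differed widely in level per kilobase of transcript. GDF15 stood at 33.7 ± 8.18 CPM per kb and IGFBP3 at 29.2 ± 2.19 CPM per kb. IL6 followed at 4.39 ± 1.05, CCL2 at 3.83 ± 0.790, IL8 at 2.43 ± 0.738 and IL1B at 1.41 ± 0.377 CPM per kb. IL1A (0.425 ± 0.228), CXCL1 (0.418 ± 0.331) and CXCL2 (0.310 ± 0.143 CPM per kb) were the lowest. In the DMSO libraries IL1A rested on 11 to 37 reads, CXCL1 on 7 to 31 and CXCL2 on 5 to 14. Across the 6 groups the mean level of GDF15 spanned 21.0-fold, that of IL1B 12.9-fold and that of IL8 7.75-fold, while IGFBP3 spanned 2.13-fold.

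**Figure D1:**
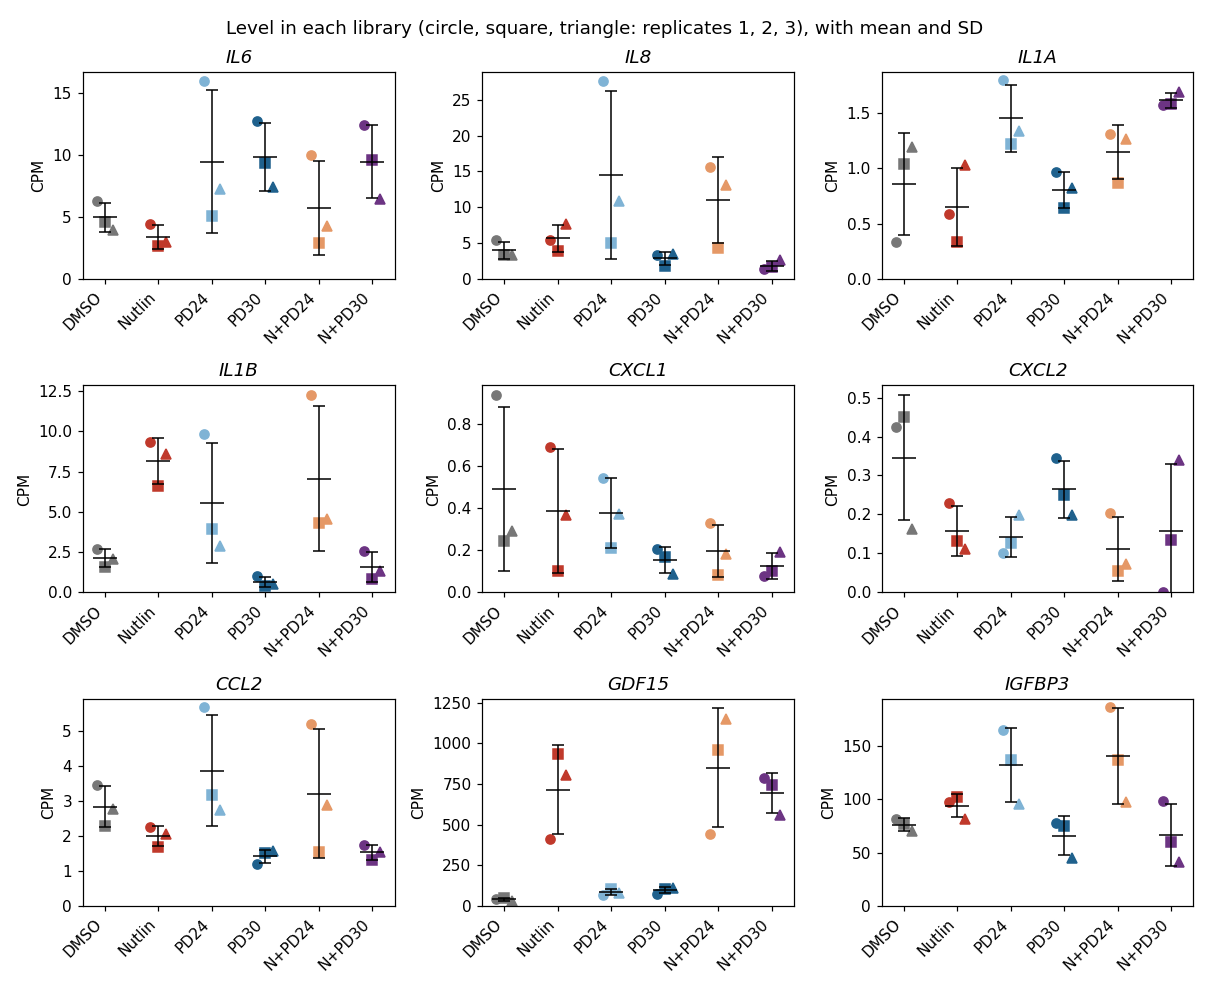
Level of each gene in CPM (linear axis from 0) in the 3 libraries of each of the 6 groups; circles, squares and triangles are replicates 1, 2 and 3, the long bar is the mean and the error bar the SD. GDF15 was at least 409.7 CPM in every library given Nutlin and at most 110.9 CPM in every library without it, and in PD24 replicate 1 was the highest library for IL6, IL8, IL1B and CCL2.

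GDF15 was the member with the largest response to Nutlin. Its level was 41.3, 49.9 and 30.3 CPM in the DMSO libraries and 409.7, 933 and 803 CPM with Nutlin. It was 70.3, 104.2 and 78.2 CPM in PD24 and 75.2, 104.2 and 110.9 CPM in PD30. With both drugs it was 445, 958 and 1150 CPM in N+PD24 and 787, 745 and 558 CPM in N+PD30. The libraries with Nutlin and those without it did not overlap, and DMSO lay below both PD0332991 groups. Among the groups given Nutlin the ranges overlapped, as did those of PD24 and PD30. GDF15 rose 19.3-fold with Nutlin (log2 fold change 4.27 ± 0.31 SE, adjusted p = 5.13e-06, edgeR quasi-likelihood test). It rose 2.36-fold in PD30 (adjusted p = 0.000677) and 2.12-fold in PD24 (adjusted p = 0.00377). Adding Nutlin to PD0332991 raised it 7.70-fold when the inhibitor was kept (N+PD30 against PD30, adjusted p = 9.83e-05) and 10.3-fold when it was withdrawn (N+PD24 against PD24, adjusted p = 1.67e-05, limma on log2(CPM + 0.1)). Against Nutlin alone, the difference was -0.07 on the log2 scale in N+PD30 (95% interval -0.65 to 0.51) and 0.30 in N+PD24 (-0.49 to 1.08). The replicate numbers pair the libraries of N+PD24 and Nutlin, and with a replicate block the latter value passed (adjusted p = 0.0106).

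The interaction between Nutlin and continuous PD0332991 was tested directly over the 12 libraries of DMSO, Nutlin, PD30 and N+PD30. For GDF15 the response to Nutlin was 2.42-fold smaller with PD0332991 (log2 difference -1.27 ± 0.39 SE, adjusted p = 0.0348), and it was the only one of 9 members tested to pass, where 19.8% of all genes did. Its mean level was 715 CPM in Nutlin and 697 CPM in N+PD30, with overlapping ranges, but 40.5 CPM in DMSO and 96.8 CPM in PD30. The smaller fold thus went with a higher level without Nutlin, and no lower level with Nutlin was shown. The interaction call was lost, with the adjusted p between 0.0535 and 0.0841, without DMSO replicate 1 or 3, Nutlin replicate 2 or 3, PD30 replicate 2 or 3, or N+PD30 replicate 2 or 3. IL8 (-1.08, adjusted p = 0.109) and IL1A (1.42, adjusted p = 0.104) did not pass, although IL1A did without DMSO replicate 1 (1.82, adjusted p = 0.0198) or Nutlin replicate 3 (1.86, adjusted p = 0.0461). With PD0332991 withdrawn, 0 of 9 members passed the interaction test in limma, and 0.888% of all genes did. Without adjustment 1 member, IL1B, was under 0.05 there (log2 difference -1.52, adjusted p = 0.344 in limma), and edgeR on the recovered reads also called 0 members.

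IL1B, which encodes the secreted form of interleukin-1 that caspase-1 matures, moved in opposite directions with the drugs. Its level was 2.70, 1.56 and 2.10 CPM in DMSO and 9.34, 6.59 and 8.59 CPM with Nutlin. It was 9.81, 3.92 and 2.91 CPM in PD24 but 0.999, 0.389 and 0.511 CPM in PD30, the latter from 14 to 29 reads a library. With both drugs it was 12.2, 4.33 and 4.59 CPM in N+PD24 and 2.60, 0.806 and 1.31 CPM in N+PD30. The Nutlin, PD24 and N+PD24 libraries all lay above the DMSO libraries, and the PD30 libraries all lay below them. IL1B rose 4.18-fold with Nutlin (log2 fold change 2.06 ± 0.22 SE, adjusted p = 4.36e-05) and fell 3.46-fold in PD30 (-1.79 ± 0.35 SE, adjusted p = 0.00225). In bulk RNA, fewer expressing cells and less RNA per cell cannot be told apart. With PD0332991 kept on the cells, IL1B in the presence of Nutlin was 5.80-fold lower than with Nutlin alone (log2 fold change -2.54 ± 0.35 SE, adjusted p = 0.000189). The rise of IL1B from PD30 to N+PD30 (1.32 ± 0.50 SE) did not pass in edgeR without a block (adjusted p = 0.110), but it did in DESeq2 (1.38, adjusted p = 0.0438). With a replicate block it passed in edgeR (1.38, adjusted p = 0.00925). The replicate numbers met the rule for pairing given below. However, N+PD30 replicate 1 correlated more with a differently numbered PD30 library (0.409) than with its own number (0.199).

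Withdrawal of PD0332991 was accompanied by higher IL1B. It was 9.11-fold lower in PD30 than in PD24 (log2 fold change -3.19 ± 0.52 SE, adjusted p = 0.00275) and 4.50-fold lower in N+PD30 than in N+PD24 (-2.17 ± 0.47 SE, adjusted p = 0.00711). In both comparisons the libraries did not overlap. Against DMSO, IL1B in PD24 was 2.64-fold higher (adjusted p = 0.0315). That call was lost without PD24 replicate 1 (log2 fold change 0.69, adjusted p = 0.0992), DMSO replicate 2 (1.23, adjusted p = 0.103) or DMSO replicate 3 (1.38, adjusted p = 0.0716). N+PD24 and Nutlin overlapped (-0.30, adjusted p = 0.569), although IL1B passed as lower without N+PD24 replicate 1 (-0.82, adjusted p = 0.00738). N+PD24 and PD24 also overlapped (0.49, adjusted p = 0.434; with a replicate block, adjusted p = 0.0227).

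IL1A, the cell-associated interleukin-1 that acts as an alarm signal, was measured at 10 to 54 reads a library. It stood at 0.333, 1.04 and 1.196 CPM in DMSO, 0.590, 0.333 and 1.03 CPM with Nutlin and 0.964, 0.640 and 0.823 CPM in PD30. It was 1.80, 1.22 and 1.34 CPM in PD24, 1.31, 0.866 and 1.26 CPM in N+PD24 and 1.57, 1.58 and 1.70 CPM in N+PD30. The N+PD30 libraries lay close together and above all libraries of DMSO, Nutlin and PD30. From Nutlin to N+PD30 IL1A rose 2.43-fold (log2 fold change 1.28 ± 0.35 SE, adjusted p = 0.0117) and from PD30 to N+PD30 it rose 2.14-fold (1.10 ± 0.23 SE, adjusted p = 0.0199). The second of these calls was lost without PD30 replicate 1 (adjusted p = 0.0529), PD30 replicate 2 (0.0662), PD30 replicate 3 (0.0545) or N+PD30 replicate 2 (0.0777). In PD30 it was 1.85-fold lower than in PD24 (-0.89 ± 0.26 SE, adjusted p = 0.0351), a call that was lost in DESeq2 (adjusted p = 0.0551) and without PD24 replicate 1 (0.109), PD30 replicate 1 (0.0606), PD30 replicate 2 (0.116) or PD30 replicate 3 (0.0881). No difference of IL1A from DMSO passed. In N+PD24 against Nutlin the difference was 0.88 (adjusted p = 0.0783), and it passed with a replicate block (adjusted p = 0.00822) or without Nutlin replicate 3 (1.21, adjusted p = 0.0230).

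IL6, the cytokine that signals through gp130 and STAT3, was higher wherever PD0332991 was kept on the cells. Its level was 6.27, 4.61 and 3.98 CPM in DMSO and 4.46, 2.63 and 2.99 CPM with Nutlin. It was 12.7, 9.34 and 7.38 CPM in PD30 and 12.4, 9.54 and 6.44 CPM in N+PD30. With the inhibitor withdrawn the libraries were spread more widely, at 15.96, 5.06 and 7.26 CPM in PD24 and 10.0, 2.92 and 4.22 CPM in N+PD24. PD30 did not overlap DMSO, and N+PD30 did not overlap Nutlin, whereas the ranges of PD24 and N+PD24 covered those of several other groups. IL6 rose 1.95-fold in PD30 (log2 fold change 0.97 ± 0.23 SE, adjusted p = 0.00743) and 2.72-fold from Nutlin to N+PD30 (1.44 ± 0.29 SE, adjusted p = 0.00182). N+PD30 and PD30 differed by 0.04 on the log2 scale (95% interval -0.60 to 0.67, adjusted p = 0.946). The difference between Nutlin and DMSO was -0.43 ± 0.24 SE (adjusted p = 0.156), and it passed without Nutlin replicate 1 (-0.71, adjusted p = 0.0327). In PD24 the difference from DMSO was 0.95 ± 0.38 SE (adjusted p = 0.0772). It passed in DESeq2 (adjusted p = 0.0301), without PD24 replicate 2 (1.23, adjusted p = 0.0281) and with a replicate block (0.84, adjusted p = 0.00892). The pairing of these libraries is weak: PD24 replicate 2 correlated more with a differently numbered DMSO library (0.489) than with its own number (0.160). With the block, IL6 also passed as higher in N+PD24 than in Nutlin (0.66, adjusted p = 0.00465) and as lower in N+PD24 than in PD24 (-0.61, adjusted p = 0.00410). Neither passed without it (adjusted p = 0.238 and 0.326). Kept or withdrawn, PD0332991 gave IL6 levels that differed by 0.02 on the log2 scale (PD30 against PD24, 95% interval -0.81 to 0.85). With Nutlin the corresponding difference was 0.76 (-0.17 to 1.68), which passed without N+PD24 replicate 1 (1.26, adjusted p = 0.0184).

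IL8 was lower with continuous than with withdrawn PD0332991, both without and with Nutlin. Its level was 5.39, 3.29 and 3.30 CPM in DMSO and 5.44, 3.90 and 7.67 CPM with Nutlin. It was 27.6, 5.02 and 10.9 CPM in PD24 and 15.6, 4.25 and 13.1 CPM in N+PD24, so that replicate 2 was the lowest library in both groups. With the inhibitor kept, it was 3.27, 1.86 and 3.52 CPM in PD30 and 1.34, 1.61 and 2.66 CPM in N+PD30. PD24 did not overlap PD30, and N+PD24 did not overlap N+PD30, but PD24 replicate 2 lay within the range of DMSO. IL8 was 5.16-fold lower in PD30 than in PD24 (log2 fold change -2.37 ± 0.53 SE, adjusted p = 0.0116), and it was still lower without PD24 replicate 1 (-1.52, adjusted p = 0.0269). It was 5.46-fold lower in N+PD30 than in N+PD24 (-2.45 ± 0.44 SE, adjusted p = 0.00277) and fell 3.06-fold from Nutlin to N+PD30 (-1.62 ± 0.30 SE, adjusted p = 0.00117). In PD24 it was 3.67-fold higher than in DMSO (1.88 ± 0.52 SE, adjusted p = 0.0201). This call was lost without PD24 replicate 1 (1.02, adjusted p = 0.0653), DMSO replicate 2 (1.76, adjusted p = 0.0691) or DMSO replicate 3 (1.75, adjusted p = 0.0567). The difference of N+PD24 from Nutlin, 0.87 ± 0.43 SE, did not pass (adjusted p = 0.151), but it did with a replicate block (adjusted p = 0.000492) or without N+PD24 replicate 2 (1.43, adjusted p = 0.00583). PD30 and DMSO differed by -0.49 ± 0.28 SE (adjusted p = 0.174). Nutlin and DMSO differed by 0.62 ± 0.27 SE (adjusted p = 0.0720), and this passed without DMSO replicate 1 (0.89, adjusted p = 0.0199) or Nutlin replicate 2 (0.82, adjusted p = 0.0340).

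The neighbouring neutrophil chemokine genes CXCL1 and CXCL2 were barely expressed. CXCL1 had 1 to 31 reads a library, with mean levels from 0.124 ± 0.0610 CPM in N+PD30 to 0.491 ± 0.389 CPM in DMSO. CXCL2 had 0 to 14 reads, with mean levels from 0.110 ± 0.0823 CPM in N+PD24 to 0.345 ± 0.160 CPM in DMSO. The single library without a CXCL2 read was N+PD30 replicate 1, the shallowest, where a count of 0 allows up to 0.236 CPM. Neighbouring groups in the order of levels overlapped for both genes. CXCL1 passed the filter on low counts in 4 of the 9 pairwise comparisons and CXCL2 in 1, and none of these tests passed, with adjusted p from 0.256 to 0.769. In comparisons where these genes had too few reads to be tested, 5 alternative fits called them, all as lower. CXCL1 passed in PD30 against DMSO with no filter (-1.73, adjusted p = 0.0340), in N+PD30 against Nutlin without Nutlin replicate 2 (-2.06, adjusted p = 0.0173) and in PD30 against PD24 without PD24 replicate 2 (-1.58, adjusted p = 0.0497). CXCL2 passed without DMSO replicate 3 in Nutlin against DMSO (-1.31, adjusted p = 0.0415) and in PD24 against DMSO (-1.52, adjusted p = 0.0342).

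CCL2, the monocyte chemoattractant, fell when PD0332991 was given alone and kept on the cells. Its level was 3.45, 2.29 and 2.78 CPM in DMSO and 2.26, 1.70 and 2.06 CPM with Nutlin. It was between 1.21 and 1.56 CPM in PD30 and 1.73, 1.31 and 1.55 CPM in N+PD30, both groups with a narrow spread. It was 5.70, 3.16 and 2.76 CPM in PD24 and 5.21, 1.54 and 2.89 CPM in N+PD24. PD30 lay below DMSO and below PD24 without overlap, whereas N+PD24 and N+PD30 overlapped. From DMSO to PD30 CCL2 fell 2.01-fold (log2 fold change -1.01 ± 0.21 SE, adjusted p = 0.00376) and its level was 2.77-fold lower than in PD24 (-1.47 ± 0.30 SE, adjusted p = 0.00766). In the presence of Nutlin the corresponding difference was -0.97 ± 0.38 SE (adjusted p = 0.0793), which passed without N+PD24 replicate 2 (-1.41, adjusted p = 0.0181). N+PD30 and Nutlin differed by -0.46 ± 0.24 SE (adjusted p = 0.145). Nutlin lay below DMSO in all libraries, but the difference did not pass (-0.38 ± 0.21 SE, adjusted p = 0.158). N+PD24 and Nutlin differed by 0.57 ± 0.37 SE (adjusted p = 0.276), and this passed with a replicate block (adjusted p = 0.0353) or without N+PD24 replicate 2 (0.98, adjusted p = 0.0462).

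IGFBP3 was the most evenly expressed member, and it too was higher after withdrawal. Its level was 81.7, 77.1 and 70.3 CPM in DMSO and 97.8, 102.4 and 82.1 CPM with Nutlin. It was 164.7, 136.8 and 96.0 CPM in PD24 and 186.9, 137.3 and 97.1 CPM in N+PD24. With the inhibitor kept, it was 77.7, 74.9 and 45.05 CPM in PD30 and 98.2, 59.9 and 41.0 CPM in N+PD30. Replicate 3 was the lowest library in all 6 groups. IGFBP3 was 1.35-fold higher with Nutlin than in DMSO (log2 fold change 0.43 ± 0.12 SE, adjusted p = 0.0106), a call lost without Nutlin replicate 2 (0.35, adjusted p = 0.0528), and 1.77-fold higher in PD24 (0.82 ± 0.18 SE, adjusted p = 0.00757). It was 2.06-fold lower in PD30 than in PD24 (-1.04 ± 0.24 SE, adjusted p = 0.0135), a call lost without PD24 replicate 1 (-0.87, adjusted p = 0.0564). It was 2.34-fold lower in N+PD30 than in N+PD24 (-1.22 ± 0.33 SE, adjusted p = 0.0182), lost without N+PD24 replicate 1 (adjusted p = 0.0664), N+PD24 replicate 2 (0.0522) or N+PD30 replicate 2 (0.0522). PD30 and DMSO differed by -0.23 (95% interval -0.64 to 0.19). N+PD24 and Nutlin differed by 0.60 ± 0.23 SE (adjusted p = 0.0663), and this passed with a replicate block (adjusted p = 7.06e-05), in edgeR on the recovered reads (0.66, adjusted p = 0.0470) and without N+PD24 replicate 3 (0.87, adjusted p = 0.00619). N+PD30 and Nutlin differed by -0.54 ± 0.27 SE (adjusted p = 0.124), and this passed without N+PD30 replicate 1 (-0.95, adjusted p = 0.00218).

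**Figure D2:**
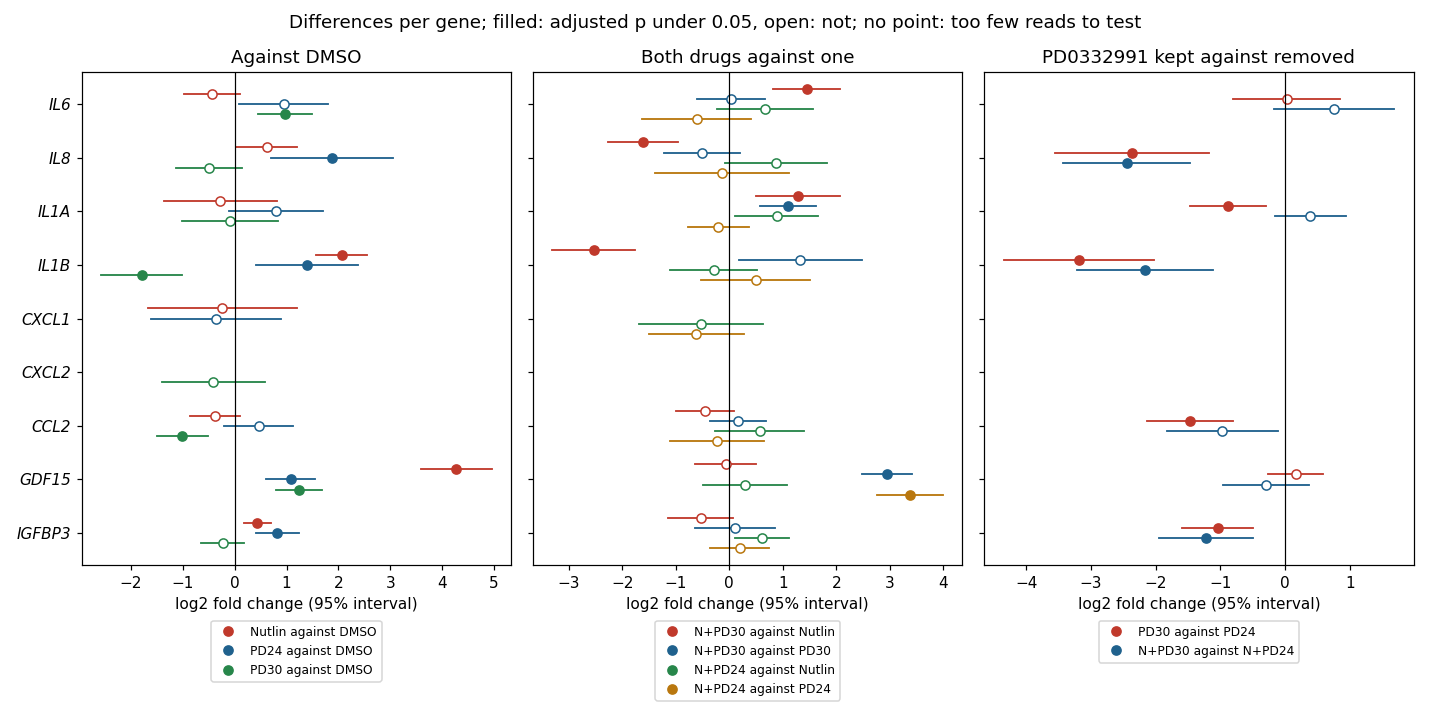
Log2 fold change of each gene (points, with 95% intervals as lines) in 9 pairwise comparisons, in 3 panels; filled points have an adjusted p under 0.05, open points do not, and a gene without a point had too few reads to be tested. In the right panel IL8, IL1B and IGFBP3 lie to the left of 0 both without and with Nutlin, from -3.19 for IL1B to -1.04 for IGFBP3, while GDF15 stands out at 4.27 in the left panel.

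Set side by side, the comparisons differ in which members they moved, and the shares of all genes called show how broad each response was. With Nutlin, 3 of 8 members tested rose (IL1B, GDF15 and IGFBP3) and 0 fell, where 54.6% of all genes tested passed and 26.6% passed as higher. With PD30, 4 of 8 passed, IL6 and GDF15 as higher and IL1B and CCL2 as lower (48.3% of all genes). With PD24, 4 of 8 passed, all higher: IL8, IL1B, GDF15 and IGFBP3 (38.3% of all genes, 17.5% as higher). From Nutlin to N+PD30, 4 of 7 passed, IL6 and IL1A as higher and IL8 and IL1B as lower (49.0% of all genes). From PD30 to N+PD30, 2 of 7 passed, IL1A and GDF15, both higher (14.5% of all genes, 8.84% as higher). These comparisons share control libraries, so a member's values in them are not independent.

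Between the continuous and the withdrawn inhibitor, from PD24 to PD30, 5 of 7 members tested passed and all 5 were lower (IL8, IL1A, IL1B, CCL2 and IGFBP3), where 25.2% of all genes passed and 12.9% passed as lower. The same 5 had libraries that did not overlap, as did 42.1% of all genes. With Nutlin present, 3 of 7 passed, all lower (IL8, IL1B and IGFBP3; 31.3% of all genes, 16.1% as lower). Whether Nutlin changed the effect of withdrawal was not tested. Comparing N+PD24 with Nutlin, 0 of 8 members passed in limma, where 32.7% of all genes did. IL1A and IGFBP3 were the 2 members with an unadjusted p under 0.05 in limma (0.03 and 0.0238). edgeR on the recovered reads called 1 member, where 5483 of 15927 genes passed. The fit with a replicate block called 6 members, where 8538 of 16836 genes passed. Comparing N+PD24 with PD24, only GDF15 of 8 passed (36.8% of all genes). With the block 3 members did, where 8385 of 16503 genes passed.

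Replicate 1 was often the highest library, in every group. It was the highest library for 7 of 9 members in PD24 and for 8 of 9 in N+PD24, GDF15 being lowest there in both. Replicate 2 of N+PD24 was the lowest for 7 of 9. Replicate 1 was the highest for 6 of 9 in DMSO and PD30 and for 5 of 9 in Nutlin and N+PD30. The first libraries of PD24 and N+PD24 were not the deepest of their groups: PD24 replicate 1 held 29455677 reads and N+PD24 replicate 1 held 24398809. The part of this ordering in the differences above was not tested beyond leaving out each library.

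The genes nearest to each member in profile were sought among 14580 genes with a mean of at least 1 CPM in some group, as the smallest root mean square difference of centred log2(CPM + 0.1) means over the 6 groups (18 libraries). For IL6 these were NAP1L5 (0.0729), AMPD2 (0.0766) and KLHL21 (0.0908). For IL8 they were CCIN (0.225), IL11 (0.232) and ADAMTSL1 (0.244). IL11 encodes another cytokine of the gp130 family, and its mean level was 58.5 CPM in DMSO, 116 in PD24 and 26.1 in PD30. For IL1B they were NFATC2 (0.244), HSPA6 (0.325) and KCNN4 (0.372), and NFATC2, a calcium-dependent transcription factor, averaged 0.911 CPM in PD24 and 0.109 CPM in PD30. For CCL2 they were ATF5 (0.0533), ENC1 (0.112) and RLTPR (0.112), and for IGFBP3 RBM3 (0.0621), EPHB2 (0.0860) and HMGA1 (0.0903). For IL1A they were ENDOG (0.0369), AGPAT2 (0.0948) and SIRT6 (0.0955). The nearest to GDF15 were BLNK (0.411), ASPA (0.429) and SPATA18 (0.445), of which SPATA18 is a known p53 target and averaged 3.99 CPM in DMSO and 51.8 CPM with Nutlin. The neighbours depended on the pseudocount: with 1 in place of 0.1, 0 of the 3 neighbours of IL8 were kept, 1 of 3 for IL6, IL1A and GDF15, and 2 of 3 for IL1B, CCL2 and IGFBP3. A small distance is easier to reach for a gene that varies little, so distances are not comparable between members. Among the members themselves, CCL2 and IGFBP3 were the closest pair (0.276) and GDF15 was farthest from IL8 (1.99).

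**Figure D3:**
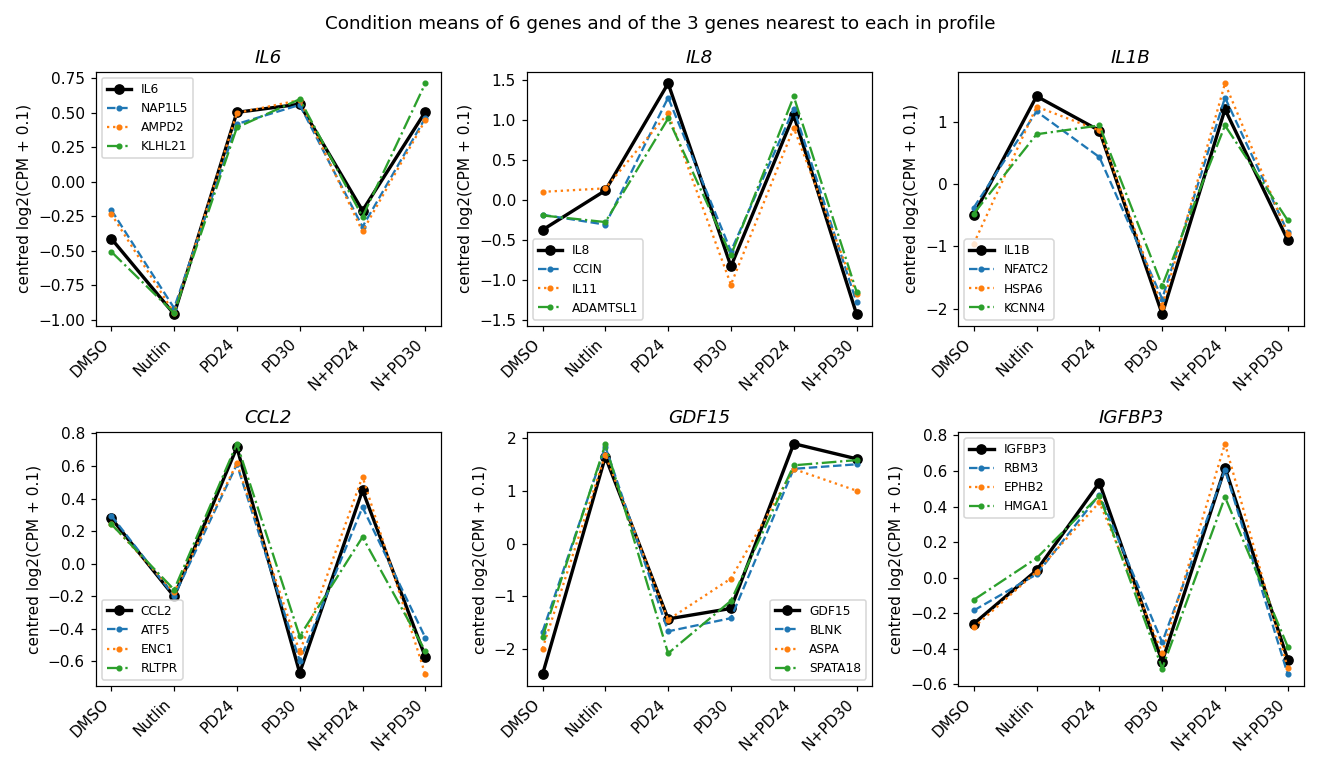
Mean level of 6 members (black) and of the 3 genes nearest in profile to each (coloured), as log2(CPM + 0.1) centred over the 6 groups. IL8, IL1B, CCL2 and IGFBP3 share high values in PD24 and N+PD24 and low ones in PD30 and N+PD30, but IL1B is highest with Nutlin alone. IL6 is high in PD24, PD30 and N+PD30, and GDF15 is high in the groups given Nutlin.

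Other secreted factors of senescent cells were mostly lower with continuous than with withdrawn PD0332991 among those that passed. Of 37 such cytokines, chemokines and growth factors, 22 could be tested in PD24 against DMSO: 11 rose, 0 fell and 11 did not pass, where 38.3% of all genes passed and 17.5% as higher (median log2 fold change 0.57, against 0.02 over all genes). From PD24 to PD30, 10 of 22 fell and 2 rose, where 25.2% of all genes passed and 12.9% as lower (median -0.50, against -0.02 over all genes). From N+PD24 to N+PD30, 13 of 25 fell and 1 rose, where 31.3% of all genes passed and 16.1% as lower (median -0.80, against -0.02). CSF2, the granulocyte-macrophage colony-stimulating factor, averaged 0.579 ± 0.186 CPM in DMSO, 6.28 ± 3.03 in PD24 and 0.227 ± 0.124 in PD30, and 6.21 ± 1.70 in N+PD24 against 0.274 ± 0.0925 in N+PD30. With Nutlin, 6 of 24 rose and 4 fell, a smaller share than the 54.6% of all genes that passed (median 0.27, against 0.03). CSF3, the granulocyte colony-stimulating factor, was without a read in the DMSO libraries, where 3 counts would be 0.0909 to 0.104 CPM, and stood at 0.442, 0.459 and 1.37 CPM with Nutlin (adjusted p = 0.00111). FGF7, a growth factor for epithelial cells, rose 7.79-fold with Nutlin (adjusted p = 0.000637) and EREG, an EGF receptor ligand, 2.65-fold (adjusted p = 0.00279). FGF7 averaged 0.0859 ± 0.0471 CPM in DMSO, near the level of 3 counts, and 0.649 ± 0.242 CPM with Nutlin. From Nutlin to N+PD30, 5 of 24 rose and 6 fell (49.0% of all genes passed). FGF7 was 6.72-fold and CSF2 4.14-fold lower (adjusted p = 0.00231 and 0.0149), and CSF3 lay at 0 to 0.0484 CPM in N+PD30 (adjusted p = 0.00149). In N+PD30 FGF7 averaged 0.082 ± 0.0744 CPM, so both of its fold changes compare with a level of very few reads. In PD30, 6 of 22 rose and 4 fell (48.3% of all genes passed): LIF, which signals through gp130 as IL6 does, rose 2.31-fold (adjusted p = 6.24e-06), SPP1, which encodes osteopontin, rose 2.21-fold (adjusted p = 0.0208) and the bone morphogenetic protein gene BMP2 fell 2.61-fold (adjusted p = 0.000219).

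Of 15 receptors and decoys of the members, 14 were in the files and 10 were tested with Nutlin. Of these, 5 rose and 0 fell, where 54.6% of all genes passed and 26.6% as higher (median log2 fold change 0.71, against 0.03). RET, the signalling partner of the GDF15 receptor, averaged 0.0209 ± 0.0181 CPM in DMSO and 1.15 ± 0.289 CPM with Nutlin (adjusted p = 2.28e-05). IL1R2, the decoy receptor of interleukin-1, averaged 0.0727 ± 0.0641 CPM in DMSO and 0.846 ± 0.0801 CPM with Nutlin (adjusted p = 0.000249). From Nutlin to N+PD30, 2 of 10 rose and 6 fell, where 49.0% of all genes passed: RET fell 11.98-fold, IL1R2 fell 10.5-fold and IL1R1, the signalling receptor, fell 3.62-fold (adjusted p = 0.000127, 0.000341 and 0.000237). IL1R1 fell also 3.04-fold from DMSO to PD30 (adjusted p = 0.000143), where 3 of 8 genes of the list rose and 2 fell (48.3% of all genes passed). From N+PD24 to N+PD30, 0 of 11 rose and 7 fell, where 31.3% of all genes passed and 16.1% as lower (median -0.60, against -0.02).

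The inflammasome and interleukin-1 processing genes govern the release of IL1B. Their shares called in either direction lay near those of all genes (54.6% with Nutlin, 48.3% in PD30 and 49.0% from Nutlin to N+PD30). With Nutlin, however, all calls of this list were higher, where 26.6% of all genes passed as higher. With Nutlin 5 of 10 rose and 0 fell: CASP5 averaged 0.0901 ± 0.0869 CPM in DMSO and 1.40 ± 0.244 CPM with Nutlin (adjusted p = 0.000123), and the sensor gene NLRP1 rose 2.44-fold (adjusted p = 0.000159). In PD30 3 of 9 rose and 1 fell, namely NLRP3, which was 2.21-fold lower (adjusted p = 0.000788). From Nutlin to N+PD30 3 of 10 rose and 3 fell, the latter being CASP5 (4.64-fold, adjusted p = 0.000908), AIM2 (2.76-fold, adjusted p = 0.0158) and NLRP3 (2.001-fold, adjusted p = 0.00747). AIM2 rested on few reads, at 0.475 ± 0.0967 CPM with Nutlin and 0.183 ± 0.0473 CPM in N+PD30.

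Of 26 genes that control or read out NF-kB and C/EBP activity, all were tested. With Nutlin 3 rose and 9 fell, with PD30 2 rose and 5 fell, and from Nutlin to N+PD30 11 rose and 2 fell (median 0.23, against 0.00). The shares of all genes that passed, 54.6%, 48.3% and 49.0% in that order, were higher than those of this list in the first 2 comparisons and about the same in the last. In the last, however, most calls of this list were higher, where 3823 of 15721 genes passed as higher and 3888 as lower. CEBPB, which encodes C/EBP beta, rose 2.36-fold from Nutlin to N+PD30 (adjusted p = 5.12e-05) and NFKBIE, an NF-kB inhibitor gene, rose 2.07-fold (adjusted p = 0.00335). SOCS3, a feedback inhibitor of gp130 signalling, fell 2.35-fold there (adjusted p = 0.000717) and 2.22-fold in PD30 against DMSO (adjusted p = 0.00241). GATA4, an upstream activator of the secretory programme, fell 2.65-fold in PD30 (adjusted p = 0.000140), but its low level was not particular to PD30. It averaged 5.91 CPM in DMSO, 2.80 in Nutlin, 2.07 in PD24, 2.25 in PD30, 1.29 in N+PD24 and 2.05 in N+PD30. CEBPB and IL6 were thus both higher in N+PD30 than in Nutlin, while IL8 and IL1B were lower.

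Of 9 stress factors known upstream of GDF15, 1 rose and 5 fell with Nutlin (54.6% of all genes passed), and 4 rose and 1 fell from Nutlin to N+PD30 (49.0%). TRIB3 fell 4.06-fold with Nutlin (adjusted p = 0.000114), rose 2.54-fold in PD30 (adjusted p = 0.00329) and 17.5-fold from Nutlin to N+PD30 (adjusted p = 1.32e-05). ATF4, the transcription factor of the integrated stress response, was 3.51-fold higher there (adjusted p = 4.33e-06) and DDIT3 2.34-fold (adjusted p = 5.15e-05), whereas GDF15 itself differed by -0.07 on the log2 scale. Of 12 other genes of the insulin-like growth factor axis, 10 were tested with Nutlin: 6 rose and 1 fell (54.6% of all genes passed), and the receptor gene IGF1R rose 2.32-fold (adjusted p = 1.25e-05). In PD30 2 of 10 rose and 1 fell (48.3% of all genes passed), from PD24 to PD30 1 rose and 0 fell (25.2%), and from N+PD24 to N+PD30 0 rose and 1 fell (31.3%), while IGFBP3 fell in both of the latter comparisons.

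**Figure D4:**
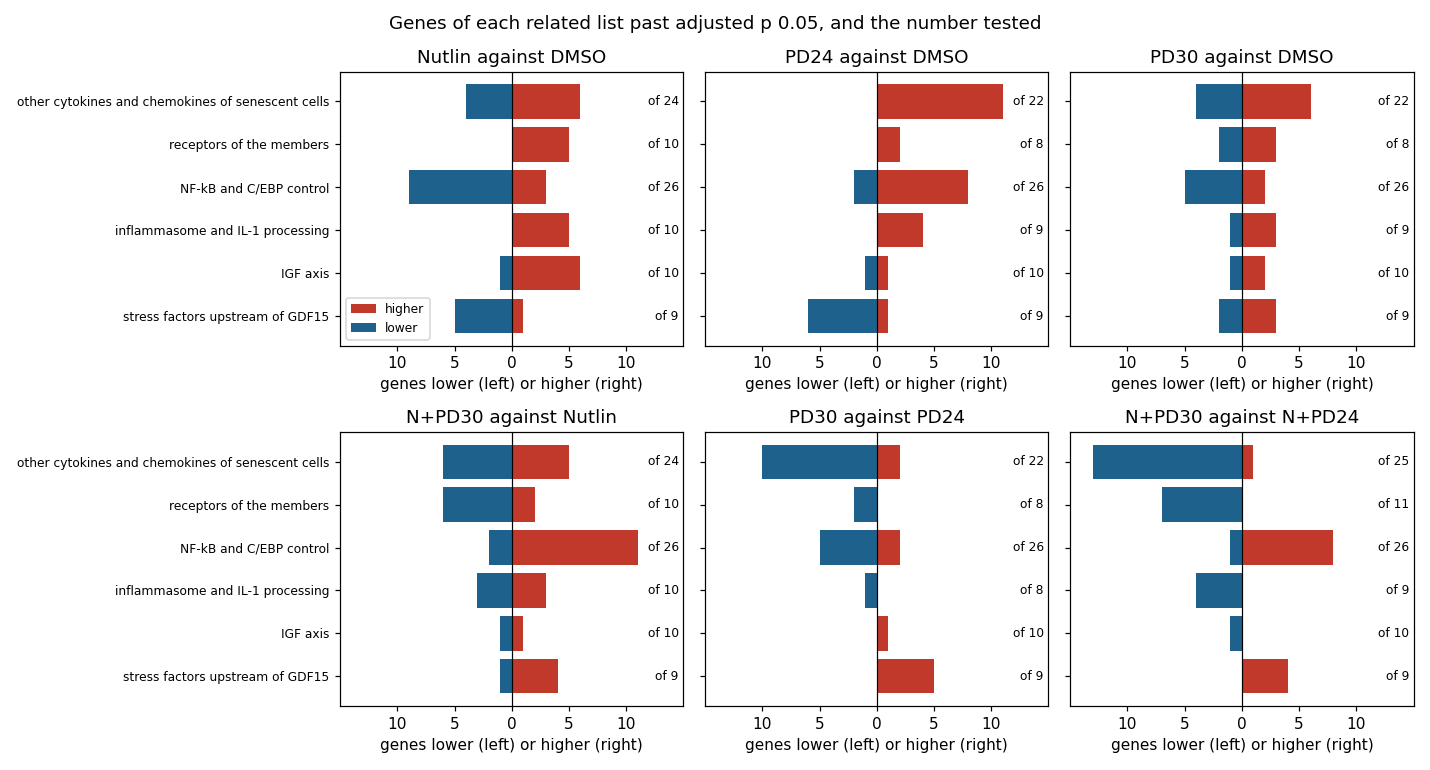
Number of genes of each related list that passed an adjusted p of 0.05 as higher (right of 0) or lower (left of 0) in 6 comparisons, with the number tested at the right edge. The other cytokines and chemokines of senescent cells stand at 11 higher and 0 lower in PD24 against DMSO, at 2 higher and 10 lower in PD30 against PD24 and at 1 higher and 13 lower in N+PD30 against N+PD24.

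The study reports that PD0332991 arrested most cells in G1, and whether the cells were senescent was not tested. Genes used to mark the senescent state changed with PD0332991 both kept and withdrawn. Of 10 such genes, 7 fell and 2 rose in PD30 (48.3% of all genes passed) and 7 fell and 3 rose in PD24 (38.3%). The list did not move in 1 way: CDKN1A, which usually rises in senescent cells, fell in PD30 (log2 fold change -0.57, adjusted p = 0.0103) and in PD24 (-0.90, adjusted p = 0.00159). The 2 genes that rose in PD30 were CDKN2B, which encodes the CDK4 and CDK6 inhibitor p15 (0.37, adjusted p = 0.0352), and the lysosomal galactosidase gene GLB1 (0.65, adjusted p = 7.93e-05), both named after their values were seen. Among them the proliferation genes MKI67 and CCNA2 fell 133-fold and 48.6-fold and the lamin gene LMNB1 fell 44.98-fold in PD30 (adjusted p = 3.66e-09, 2.79e-09 and 2.54e-09). MKI67 lay between 3.33 and 4.65 CPM in PD24 and between 4.43 and 6.61 CPM in PD30. PD30 and PD24 overlapped for MKI67, and the difference did not pass (log2 fold change 0.39, adjusted p = 0.198). With Nutlin, 3 rose and 5 fell, with CDKN1A 23.6-fold higher, MKI67 2.41-fold lower and HMGB2 2.29-fold lower.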

How the data were processed

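RNA of 18 SJSA-1 libraries, 6 groups of 3, was sequenced as single reads. Per the labels and the study's methods, the authors aligned reads to hg19 with TopHat and Bowtie2, counted reads per gene with HTSeq 0.6.0 using a strand setting, and compared groups with DESeq2. The deposited counts are whole reads per gene and library for 5 groups. For N+PD24 the authors deposited a normalized signal, counts divided by a size factor per library. Whole reads were recovered for 100% of its values (tolerance 0.02 reads). The DMSO and Nutlin columns were identical in the 2 tables that held them (6 of 6). The tables also hold 28 gene names turned into dates. The authors' own fold changes and p-values were not used.

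Counts were compared with the edgeR 4.0.16 quasi-likelihood test (R 4.3.3; TMM, filterByExpr, groups in pairs). Comparisons with N+PD24 used limma 3.58.1 with trend on log2(CPM + 0.1), scaled by library total and TMM factor, with at least 0.2 CPM in 3 libraries; these fold changes understate changes of low genes. All were fitted across all genes, with Benjamini-Hochberg adjustment and calls at an adjusted p under 0.05. Alternatives were other scalings, filters and pseudocounts, DESeq2 1.42.0, edgeR on the recovered reads, a replicate block, and leaving out each library. The SE of an edgeR fold change is its size divided by the root of its F value, and 95% intervals use the degrees of freedom of the fit. Scripts were tested on simulated data. Figures were drawn with Matplotlib 3.10.9. Counting limits cover counting error only.

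The labels number the replicates. Numbers were taken to pair libraries where every correlation of same-numbered deviations from the group means exceeded 0.1. The correlations for replicates 1 to 3 were 0.1001, 0.160 and 0.585 in PD24 against DMSO, 0.199, 0.320 and 0.653 in N+PD30 against PD30, 0.314, 0.551 and 0.286 in PD30 against PD24, 0.650, 0.417 and 0.494 in N+PD24 against Nutlin, and 0.424, 0.485 and 0.198 in N+PD24 against PD24. In the other pairwise comparisons at least 1 did not exceed it. The rule did not ask that a library correlate best with its own number. PD24 replicate 2 correlated more with a differently numbered DMSO library (0.489), and N+PD30 replicate 1 with a differently numbered PD30 library (0.409). The labels do not say what a number shares.

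The 9 genes, the related lists and the tests were chosen with earlier results of these data known. Named genes of a list are the up to 3 with the largest fold change, in Nutlin against DMSO, PD30 against DMSO and N+PD30 against Nutlin, among those that passed with an absolute log2 fold change over 1 and groups that did not overlap. CSF2 in other comparisons and MKI67 in PD30 against PD24, and CDKN2B and GLB1, were named after their values were seen.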

Additional observations from a re-analysis of the deposited data

Results flagged for a closer look

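GDF15 was picked out because its response to Nutlin differed between cells with and without continuous PD0332991 by a test of the difference itself. The interaction was -1.275 on the log2 scale (95% interval -2.12 to -0.44, adjusted p = 0.0348 in edgeR), and its adjusted p ranged from 0.00485 to 0.0841 when each of the 12 libraries was left out in turn. The level of GDF15 did not pass as different between N+PD30 and Nutlin (-0.07 on the log2 scale), whereas PD30 was 2.36-fold above DMSO. The groups of 3 are too small for a test of outlying libraries.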

How the results depend on the processing

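With a replicate block the members that passed went from 3 to 5 in Nutlin against DMSO (IL6 -0.44, adjusted p = 0.0429, and IL8 0.61, adjusted p = 0.0475, were added), from 0 to 6 in N+PD24 against Nutlin and from 1 to 3 in N+PD24 against PD24. It added IGFBP3 in N+PD30 against Nutlin (-0.63, adjusted p = 0.0285) and CCL2 in N+PD30 against N+PD24 (-0.97, adjusted p = 0.0392), and apart from these and the calls given with the genes above it changed none for the members. In Nutlin against DMSO, PD30 against DMSO, N+PD30 against Nutlin and N+PD30 against N+PD24 the libraries share only a number. edgeR on recovered reads gave 1 member in N+PD24 against Nutlin. Leaving out each library in turn gave 3 to 4 members in Nutlin against DMSO, 4 to 4 in PD30 against DMSO, 2 to 5 in PD24 against DMSO, 4 to 5 in N+PD30 against Nutlin, 1 to 2 in N+PD30 against PD30, 3 to 6 in PD30 against PD24, 0 to 1 in the interaction with PD30, 0 to 2 in N+PD24 against Nutlin, 1 to 1 in N+PD24 against PD24, 2 to 4 in N+PD30 against N+PD24 and 0 to 0 in the interaction with PD24. GDF15 in N+PD30 against N+PD24 passed only without N+PD24 replicate 1 (-0.70, adjusted p = 0.0256). The causes were not tested. Over the tests of single members that the main fits also hold, 1020 values kept their direction and side of the threshold, 32 came to pass, 28 no longer passed and 0 changed sign past it.

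Over all genes, the block moved the calls from 2183 to 4375 in N+PD30 against PD30, from 3816 to 6107 in PD30 against PD24, from 5498 to 8538 in N+PD24 against Nutlin and from 153 to 318 in the interaction with PD24, where a pseudocount of 1 gave 295. The block moved the calls from 6079 to 8385 in N+PD24 against PD24 and from 8614 to 8572 in Nutlin against DMSO. Scaling by total counts changed the split of genes called higher and lower from 4198 and 4416 to 3151 and 5439 in Nutlin against DMSO (median log2 fold change 0.03 to -0.10), from 1333 and 850 to 1107 and 1421 in N+PD30 against PD30, from 2740 and 2758 to 2210 and 3251 in N+PD24 against Nutlin, from 2818 and 3261 to 2090 and 4166 in N+PD24 against PD24, and from 2509 and 2661 to 3122 and 2105 in N+PD30 against N+PD24. In comparisons where CXCL1 or CXCL2 had too few reads for a main test, 39 alternative fits tested them and 5 passed, as given above. Counts over the related lists were made with the main scaling only. Depth limits CXCL1 and CXCL2 above all, with at most 31 reads a library.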
